A study of Danio rerio with 10 samples.

Results

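The transcripts of 7 genes of vitamin D metabolism and action (*cyp2r1*, *cyp27b1*, *cyp24a1*, *gc*, *vdra*, *vdrb* and *trpv6*) were examined in zebrafish larvae exposed to a mixture of persistent organic pollutants (POP). They were taken by their gene symbol from the 32520 genes of the expression table, each matched 1 identifier, and all 7 were among the 21563 genes with enough reads to be tested. Whole larvae of the AB strain were exposed from the first hours after fertilization to 5 days post fertilization (dpf) to 0.1% DMSO alone (control, n = 3) or to the mixture in 0.1% DMSO at 75 times (POP75×, n = 3) or 125 times (POP125×, n = 4) the blood concentrations on which it was modelled. Each sample was RNA from a pool of larvae, of 75 according to the sample records and of a smaller number according to the methods of the study. The mixture combines brominated, chlorinated and perfluorinated compounds, so that no difference below can be assigned to 1 compound.

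Vitamin D becomes a hormone in a pair of hydroxylation steps, at carbon 25 and then at carbon 1, and travels in blood on a carrier protein. The hormone binds a nuclear receptor which, paired with a retinoid X receptor, switches on target genes, among them the gene of the enzyme that breaks the hormone down and, in calcium-transporting epithelia, that of a calcium channel. Zebrafish have a duplicated receptor gene, and the larva takes up much of its calcium through ionocytes of the skin.

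The samples had between 13659239 and 20267255 reads on genes, and each of the 7 genes had between 24 and 2056 reads in every sample. Values are normalized counts, that is, read counts divided by a factor for each sample, and differences between groups are given as differences of mean log2(normalized count + 1) with their standard error (SE). The 10 samples were clustered on the 21563 tested genes and divided into 3 sets, a number that was imposed. These sets cut across the treatments. Control replicate 1 clustered with replicate 4 of POP75× and with replicates 3 and 4 of POP125× (set 1), the other controls clustered with replicate 3 of POP75× (set 2), and replicate 2 of POP75× clustered with replicates 1 and 2 of POP125× (set 3). The labels name no batch that matches these sets, which were found from the same values. Set 2 held no POP125× sample and set 3 no control, and treatment and set can be told apart only in part. For this reason, values within the sets, or differences from a fit with a term for the set, are given beside the differences at POP125×. In whole larvae, fewer cells of a type and less RNA per cell cannot be told apart.

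Of the 7 genes, *cyp24a1* was the only one whose level was ordered by dose, with the 3 groups fully separated. The share of all genes with this full order was not computed. Its separate steps, from control to POP75× and from POP75× to POP125×, were seen without overlap for 4.94% and 2.95% of the genes. The receptor gene *vdrb* was higher in each POP125× sample than in any control, while the activating hydroxylases *cyp2r1* and *cyp27b1* had lower means in both exposed groups, with overlapping samples. The genes *gc*, *vdra* and *trpv6* overlapped in every comparison. The genes were chosen by their role and with their log2 differences between POP125× and control known, *cyp24a1* for its rise, so the values of POP125× against control are given as a description with no test.

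The *cyp24a1* gene (ENSDARG00000103277) codes for the 24-hydroxylase of mitochondria that starts the breakdown of the vitamin D hormone and its precursor. Its normalized counts were 254, 431 and 379 in the controls (replicates 1, 2 and 4), 934, 748 and 620 at POP75× (replicates 2, 3 and 4), and 1518, 1892, 1185 and 1795 at POP125× (replicates 1 to 4), the order used for every gene below. The lowest POP75× sample was above the highest control, and the lowest POP125× sample was above the highest POP75× sample. The group means were 355 ± 91.2 (SD, n = 3), 767 ± 158 (SD, n = 3) and 1598 ± 318 (SD, n = 4). By sample set, the values were 254, then 620, then 1185 and 1795 in set 1, 379 and 431 against 748 in set 2, and 934 against 1518 and 1892 in set 3. Since the groups did not overlap, this order inside the sets had to follow and is no separate check.

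At POP125× the *cyp24a1* level was 4.53-fold that of the controls, a log2 difference of 2.18 (SE 0.23). In the fit across all genes, 1.70% of the genes had an adjusted p under 0.05 in that comparison, 1.35% with a higher level, and of the 7 genes *cyp24a1* was the 1 with such a value. As it was chosen for this rise, that count is a description and no test of it. At POP75× it was 2.18-fold higher than in the controls, a log2 difference of 1.13 (SE 0.24, 95% interval 0.59 to 1.66), higher in 3 of 3 samples than in any control. The limma test across all genes gave an adjusted p of 0.341 for this difference. In that test 0 genes passed (0.00%), beside 1274 at an unadjusted p under 0.05, and in DESeq2 127 genes passed, *cyp24a1* among them with an adjusted p of 0.0101. A separation in this direction between POP75× and control was seen for 4.94% of the genes. From POP75× to POP125× the level differed by 1.05 (SE 0.23), with an adjusted p of 0.885 in limma (0 genes passed or 0.00%, and 1051 at an unadjusted p under 0.05) and 0.0226 in DESeq2, which called 22 genes. Here all 4 POP125× samples lay above all 3 POP75× samples, as for 2.95% of the genes. These comparisons share their control or exposed samples with that of POP125× against control and are not separate evidence.

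**Figure D1:**
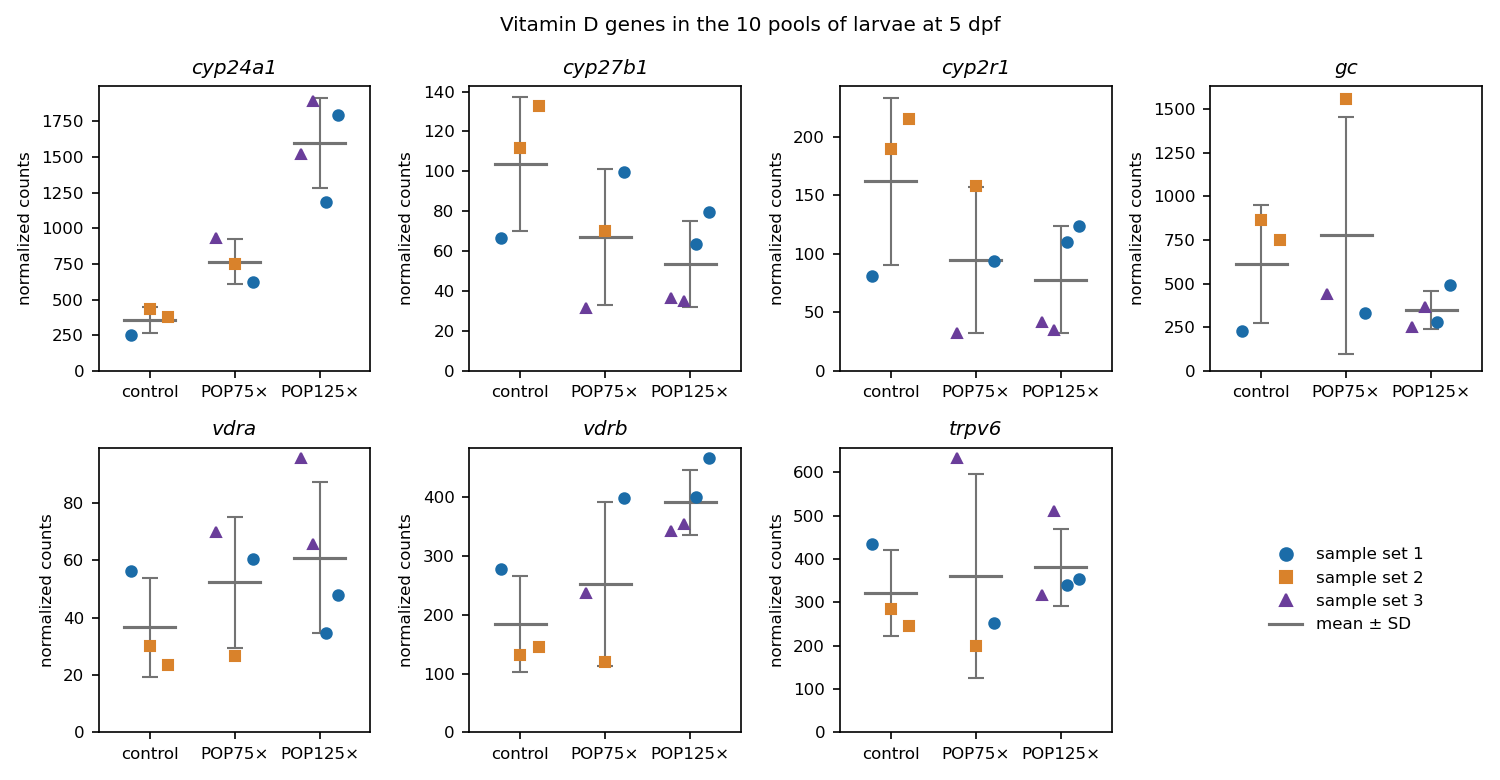
Normalized counts of the 7 vitamin D genes (one panel each, linear axis from 0) in control, POP75× and POP125× samples. Each point is 1 pool of larvae, its colour and shape mark the sample set, and bars give the mean ± SD of 3, 3 and 4 pools. For *cyp24a1* the controls reach at most 431, POP75× covers 620 to 934 and POP125× 1185 to 1892. For *cyp2r1* and *vdra*, in contrast, the points of 1 colour lie closer to each other than the points of 1 group.

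The *cyp2r1* gene (ENSDARG00000056587) codes for the main 25-hydroxylase of vitamin D. Its normalized counts were 81.1, 190 and 216 in the controls, 32.6, 158 and 93.8 at POP75×, and 42.0, 35.3, 110 and 124 at POP125×. Within set 1 the control had 81.1 and the exposed samples 93.8, 110 and 124, and the 2 lowest POP125× samples were those of set 3. The log2 difference was −0.92 (SE 0.63) at POP75×, with a limma adjusted p of 0.900, and −1.14 (SE 0.59) at POP125×. Without the samples of set 3 the latter was −0.35, and with the set as a term in the fit it was 0.29, that is, of the opposite sign.

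The *cyp27b1* gene (ENSDARG00000045015) codes for the 1-alpha-hydroxylase that makes the active hormone. It had 66.8, 111 and 133 normalized counts in the controls, 31.7, 70.3 and 99.6 at POP75×, and 36.8, 35.3, 63.6 and 79.4 at POP125×. At POP125×, 3 of 4 samples were below all controls. The log2 difference was −0.71 (SE 0.45) at POP75× with a limma adjusted p of 0.882, −0.96 (SE 0.42) at POP125×, and −0.26 (SE 0.42, adjusted p = 0.917) between the doses. Fitted with a term for the sample set, the difference at POP125× was −0.22, and without set 3 it was −0.48. Within set 1 its counts at POP125×, 63.6 and 79.4, lay on both sides of the control with 66.8.

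Since the enzymes of *cyp24a1* and *cyp27b1* act on the hormone in opposite directions, the reads of one per read of the other were computed in each sample, a ratio from which the scaling of the sample drops out. There were 3.80, 3.87 and 2.85 *cyp24a1* reads per *cyp27b1* read in the controls, 29.4, 10.6 and 6.23 at POP75×, and 41.3, 53.7, 18.6 and 22.6 at POP125×. Every exposed sample was above every control, while POP75× replicate 2, of set 3, lay above the 2 POP125× samples of set 1. The ratio describes transcripts and uses the *cyp24a1* values already given. No enzyme activity or hormone level was analysed here.

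The *gc* gene (ENSDARG00000089310) codes for the vitamin D binding protein, which in vertebrates is made by the liver and carries vitamin D and its metabolites in blood. Its normalized counts were 228, 862 and 752 in the controls, 441, 1559 and 329 at POP75×, and 250, 369, 281 and 494 at POP125×. The 3 samples of set 2 (752, 862 and 1559) were the highest of all 10, and the lowest value belonged to a control. The log2 difference was 0.20 (SE 0.59) at POP75× with a limma adjusted p of 0.965, and −0.65 (SE 0.55) at POP125×. With the set as a term the difference at POP125× was 0.65 and that at POP75× 0.86. The summed normalized count of 13 liver markers was also highest in the 3 samples of set 2, with POP125× replicate 4 of set 1 close below. It was 107733, 175348 and 190681 in the controls, 111384, 245055 and 123002 at POP75×, and 112696, 121260, 137789 and 171923 at POP125×. The part of liver RNA in the *gc* values was not tested.

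The receptor genes *vdra* (ENSDARG00000099483) and *vdrb* (ENSDARG00000070721) code for the paralogous vitamin D receptors, and reads that match both copies could be assigned to either. For *vdrb* there were 278, 131 and 145 normalized counts in the controls, 238, 120 and 399 at POP75×, and 343, 355, 400 and 466 at POP125×. All 4 POP125× samples were above all controls, as was the case for 12.4% of the genes tested. POP75× replicate 4 was as high as POP125× replicate 3 of the same set. The log2 difference was 0.37 (SE 0.39) at POP75× with a limma adjusted p of 0.933, 1.15 (SE 0.37) at POP125×, and 0.78 (SE 0.37, adjusted p = 0.885) between the doses. With the set as a term the POP125× difference was 0.50, and without set 3 it was 1.31.

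For *vdra* there were 56.3, 30.3 and 23.6 normalized counts in the controls, 70.0, 26.6 and 60.6 at POP75×, and 95.6, 65.7, 34.6 and 48.0 at POP125×. The samples of set 3 were the 3 highest of the 10 and those of set 2 the 3 lowest. In set 1 both POP125× samples were below the control. The log2 difference was 0.48 (SE 0.46) at POP75×, with a limma adjusted p of 0.933, and 0.71 (SE 0.43) at POP125×, which turned to −0.28 with the set as a term. The number of *vdrb* reads per *vdra* read was 4.93, 4.32 and 6.13 in the controls, 3.40, 4.52 and 6.58 at POP75×, and 3.58, 5.41, 11.6 and 9.71 at POP125×. It was highest in the 2 POP125× samples of set 1, and those of set 3 lay within or below the range of the controls.

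The *trpv6* gene (ENSDARG00000014496) codes for the epithelial calcium channel of the calcium-absorbing ionocytes of zebrafish, and in mammals it is a target of the vitamin D receptor. Its normalized counts were 435, 285 and 246 in the controls, 632, 200 and 252 at POP75×, and 317, 512, 340 and 354 at POP125×. No group was separated from another. The log2 difference was 0.02 (SE 0.38, 95% interval −0.81 to 0.86) at POP75× with a limma adjusted p of 0.995, and 0.26 (SE 0.36, 95% interval −0.52 to 1.04) at POP125×. The intervals include a change by 1 log2 unit at the higher dose or almost as much at the lower. With the set as a term the difference at POP125× was −0.50. Within set 1 the control with 435 was above the 3 exposed samples with 252, 340 and 354.

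**Figure D2:**
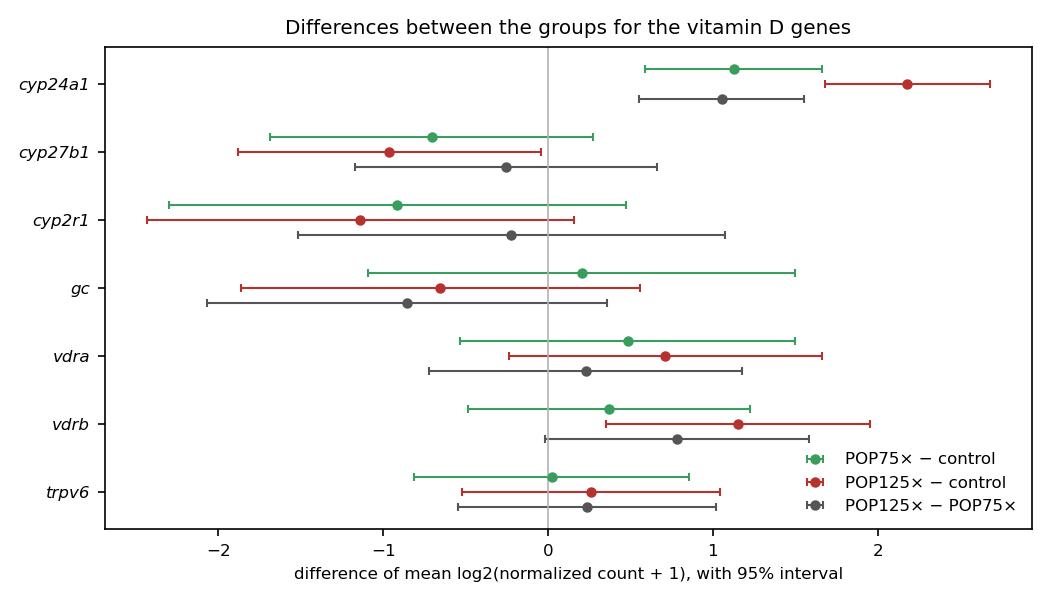
Differences between the groups for each of the 7 vitamin D genes on the log2(normalized count + 1) scale, as points with 95% intervals not adjusted for the number of genes. The 3 *cyp24a1* points lie at 1.13, 2.18 and 1.05, while the *trpv6* intervals all span 0 and those of *cyp2r1* reach from −2.43 to 1.07.

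The share of the variance over the 10 samples that lay between treatments set *cyp24a1* apart from the other genes. It was 91.4% for *cyp24a1*, 51.7% for *vdrb*, 36.3% for *cyp27b1*, 27.4% for *cyp2r1*, 22.7% for *vdra*, 20.3% for *gc* and 6.39% for *trpv6*, against a median of 26.0% over all genes tested. The share between the 3 sample sets was 37.3% for *cyp24a1* and between 58.7% and 95.6% for the other genes, the highest for *cyp2r1*, with a median of 62.6% over all genes. These shares are descriptive, since *cyp24a1* was chosen for its rise and the sets were found from the same samples.

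Among the 7 genes, *cyp2r1* and *cyp27b1* had the most similar profiles (Pearson r = 0.93 over 10 samples), and *cyp2r1* ran opposite to *vdra* (r = −0.89), as did *gc* to *vdrb* (r = −0.80). The r of *cyp24a1* with the other genes was between −0.60, with *cyp27b1*, and 0.57, with *vdrb*. Of 16760 genes with a mean of at least 50 normalized counts, those most like *cyp24a1* were *pitrm1* (r = 0.98), which codes for a peptidase of mitochondria, *cetp* (r = 0.98), for a transfer protein of cholesteryl esters, *acadvl* (r = 0.98), for an acyl-CoA dehydrogenase of very long fatty acids, and *aspg* and *bzw1b* (r = 0.97 each). The genes most like the others were *srsf7b* for *cyp2r1* (r = 0.99), *tmem237b* for *cyp27b1* (r = 0.96), *eif3ha* for *gc* (r = 0.99), *tbcela* for *vdra* (r = 0.98), *pde10a* for *vdrb* (r = 0.99) and *lyn* for *trpv6* (r = 0.93). All these correlations are descriptions over samples that share treatments and sets.

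The surroundings of the 7 genes were examined with 12 lists of 180 genes, of which 160 identifiers were tested. The lists were chosen with earlier results of these data known, so their counts and medians are descriptions. At POP125× 3 of them were past an adjusted p of 0.05 in limma, all higher and 0 lower, or 1.88% against 1.70% of all genes, and in the other comparisons 0 were. The 3 genes were the hormone genes *calca* and *pth1a* and the ionocyte gene *slc12a10.2*. The median log2 difference over all genes tested was −0.01 at POP125×, and the list medians given below are to be read beside it.

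**Figure D3:**
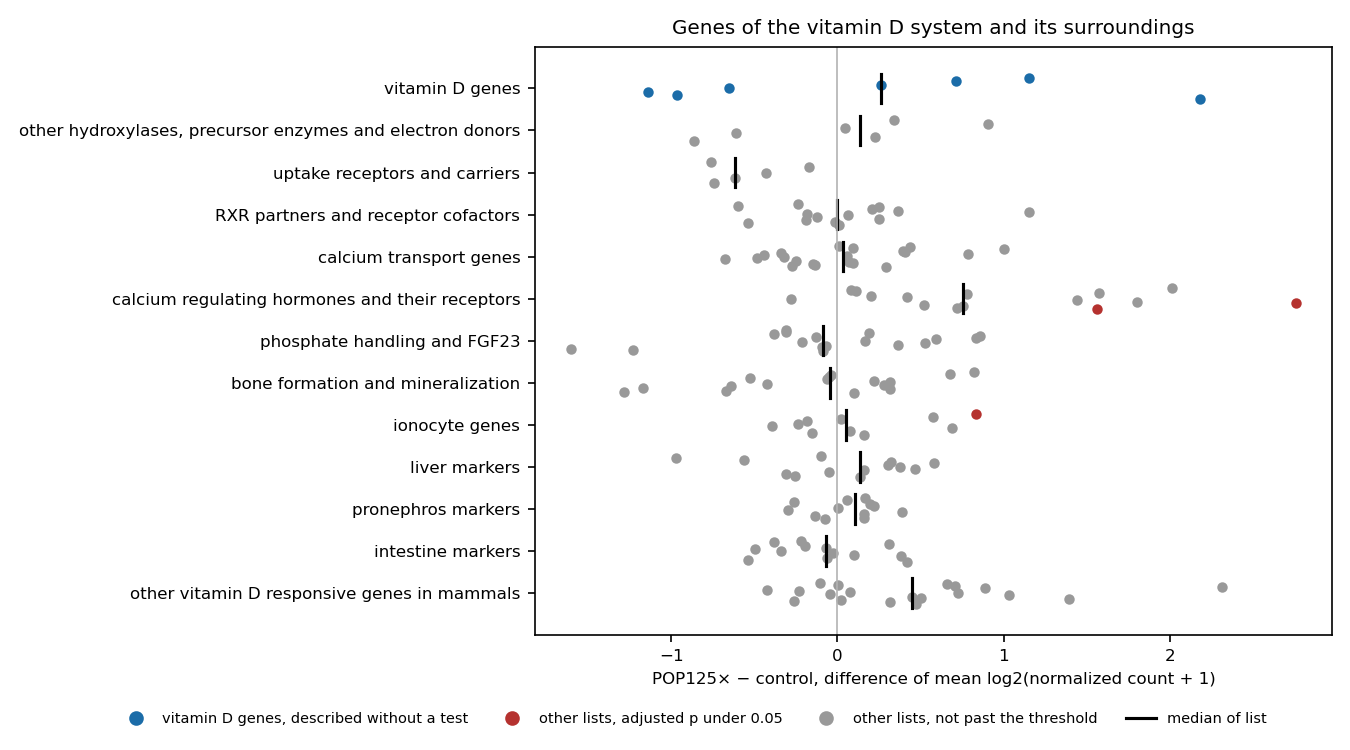
Log2 difference between POP125× and control for every tested gene of the 7 vitamin D genes and 12 surrounding lists, with the median of each list as a black line. Red points passed an adjusted p of 0.05 (*pth1a* at 2.76, *calca* at 1.56 and *slc12a10.2* at 0.83) and grey points did not, while the blue points of the vitamin D genes are shown without a test.

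Of the other genes of vitamin D synthesis and their electron donors, 6 were tested and 0 passed, with a median of 0.13. The *dhcr7* gene, coding for the reductase that turns the precursor of vitamin D into cholesterol, had 544 to 767 normalized counts in the controls and 334 to 533 at POP125×. The groups did not overlap, which held for 11.6% of the genes in this direction, and the log2 difference was −0.61 (SE 0.26, limma adjusted p = 0.208). It was −0.045 with the set as a term, and −0.33 without set 3. For *fdx1b*, a ferredoxin that supplies electrons to P450 enzymes of mitochondria, the difference was 0.90 (SE 0.47, adjusted p = 0.291) on at most 16.0 normalized counts, and 1.42 with that term. The sterol 27-hydroxylase gene *cyp27a1.4* differed by −0.87 (SE 0.45, adjusted p = 0.291), and by −0.30 with it.

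In mammals the carrier protein with its vitamin D is taken up in the kidney by megalin, cubilin and their partners. All 5 tested genes of this uptake had lower means at POP125×, 0 passed the limma test, and the median was −0.62. The *lrp2b* gene, a megalin copy, differed by −0.76 (SE 0.48, adjusted p = 0.375), *cubn*, for cubilin, by −0.62 (SE 0.38, adjusted p = 0.364), and *amn*, for its partner amnionless, by −0.75 (SE 0.33, adjusted p = 0.233). Fitted with a term for the sample set, these differences were 0.40, 0.32 and 0.02. Without set 3 they were −0.67, −0.64 and −0.36. The summed count of the list was 2835 in the control of set 1 and 5220 and 5556 in those of set 2, against 3096 to 3621 at POP125×, which included no sample of set 2.

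Of the retinoid X receptors and the cofactors of the receptor, 14 were tested and 0 passed, with a median of −0.00. The *med24* gene, for a subunit of the Mediator complex, had 332, 363 and 398 normalized counts in the controls and 230 to 268 at POP125× (log2 difference −0.54, SE 0.16, limma adjusted p = 0.104), without overlap, and the difference was −0.33 with the set as a term. The receptor genes *rxrab* and *rxrgb* differed by 1.15 (SE 0.49, adjusted p = 0.209) and −0.60 (SE 0.27, adjusted p = 0.237), and with the set as a term by −0.09 and 0.04. Without set 3 the differences were −0.55 for *med24*, 0.70 for *rxrab* and −0.42 for *rxrgb*.

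The list with the highest median at POP125×, 0.76, was that of the calcium-regulating hormones and their receptors. Of its 15 tested genes 14 had a higher mean than in the controls, where the median over all genes was −0.01. Groups without overlap and higher were seen for 7, as for 12.4% of all genes, and 2 passed the limma test. As the list was chosen with earlier results known, these counts describe it and do not test it. When the set was a term, *calcrla* (−0.11), *stc2a* (−0.11) and *pthlha* (−0.40) turned lower and *pth2ra* (0.15) turned higher. The *calca* gene codes for both calcitonin, which lowers blood calcium in mammals, and the peptide CGRP, which counts per gene cannot tell apart. It had 117, 135 and 134 normalized counts in the controls, 183, 193 and 203 at POP75×, and 244, 310, 530 and 524 at POP125×. The groups were in the order of dose without overlap, from which the same order within the sets follows, so that it is no separate check. The share of all genes with this full order was not computed. At POP125× it rose by 1.56 (SE 0.26, limma adjusted p = 0.0173) or 2.95-fold, and at POP75× the difference was 0.58 (SE 0.27, adjusted p = 0.856). The call at POP125× was lost without control replicate 2 (adjusted p = 0.0880), control replicate 4 (0.0885), POP125× replicate 3 (0.0590) or POP125× replicate 4 (0.0563).

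The *pth1a* gene codes for parathyroid hormone, which raises blood calcium. Its normalized counts were 2.86, 10.8 and 4.92 in the controls, 16.8, 8.52 and 13.7 at POP75×, and 13.7, 47.4, 60.8 and 82.1 at POP125×. The lowest POP125× sample was above the highest control but not above all POP75× samples. At POP125× it rose by 2.76 (SE 0.58, adjusted p = 0.0425 in limma, 0.0420 in edgeR), and with the set as a term the differences were 3.08 for *pth1a* and 1.83 for *calca*. That call was lost in 10 of 22 alternatives, by leaving out any control (adjusted p 0.0694 to 0.166), POP75× replicate 4 (0.0625), or POP125× replicate 2, 3 or 4 (0.113 to 0.128), and with other settings. Its paralog *pth1b* had 1.97 to 6.84 normalized counts in the controls and 4.86 to 39.3 at POP125× (difference 1.80, SE 0.70, adjusted p = 0.180).

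Other genes of the list did not pass. The stanniocalcin gene *stc2b* had 75.4, 17.6 and 37.4 normalized counts in the controls and 107 to 263 at POP125× (difference 2.01, SE 0.51, limma adjusted p = 0.0749), and *stc1*, whose product restrains calcium uptake in fish, 1.96 to 6.68 and 10.5 to 25.2 (1.57, SE 0.60, adjusted p = 0.175). The calcitonin receptor gene *calcr* had 80.2 to 129 in the controls and 146 to 179 at POP125× (0.72, SE 0.21, adjusted p = 0.102). The receptor partner gene *ramp2* differed by 0.78 (SE 0.21, adjusted p = 0.0863) and *pth2* by 1.44 (SE 0.43, adjusted p = 0.108). Fitted with the set, the differences were smaller for *stc2b* (0.81), *stc1* (0.41), *calcr* (0.34) and *ramp2* (0.44) and larger for *pth2* (2.04) and *pth1b* (2.68). Without set 3 they were 1.59 for *stc2b*, 0.68 for *calcr*, 0.67 for *ramp2*, 2.06 for *pth2* and 2.91 for *pth1b*, with no value for *stc1*. These genes were named because they had groups without overlap or the largest differences of the list, after their values were seen. The *stc1* values rest on 2 to 24 reads a sample. Its relatives *stc1l* and *stc2a* differed by only 0.11 and 0.08 at POP125×. For *stc1l* the difference was 0.02 with the set as a term and −0.20 without set 3. The calcium-sensing receptor gene *casr* had at most 6.89 normalized counts in any sample and was not tested.

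**Figure D4:**
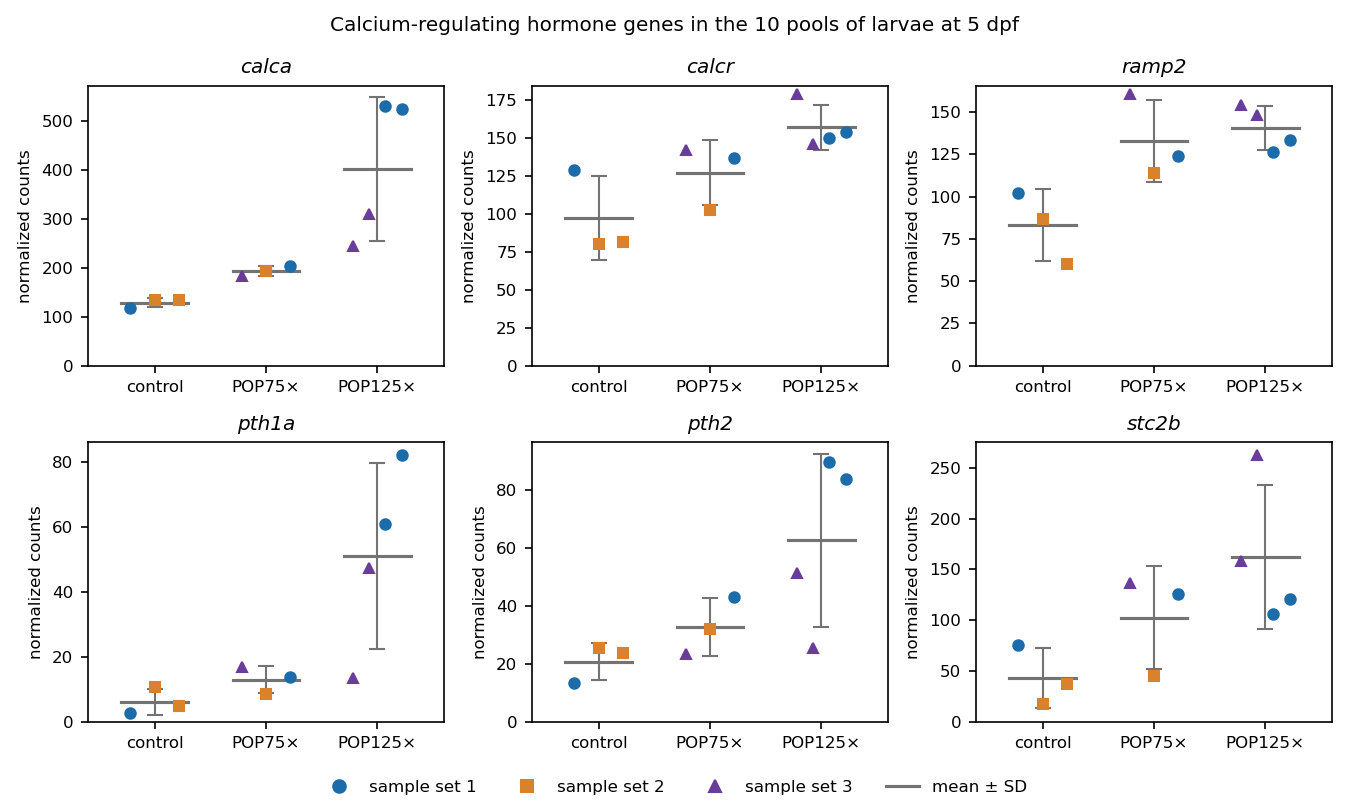
Normalized counts of 6 genes of calcium-regulating hormones and receptors (one panel each, linear axis from 0) in the 10 pools, with colour and shape for the sample set and bars for the mean ± SD. The 3 *calca* groups do not overlap, at 117 to 135, 183 to 203 and 244 to 530, and for *pth1a* and *pth2* the 2 highest samples are those of POP125× in set 1.

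Of the genes of calcium transport 20 were tested and 0 passed (median 0.03), and 3 were higher and 3 lower at POP125× without overlap, shares near the 12.4% and 11.6% of all genes. The sodium-calcium exchanger gene *slc8a3* had 62.0 to 95.4 normalized counts in the controls and 120 to 216 at POP125× without overlap (difference 1.00, SE 0.31, limma adjusted p = 0.121, and 0.28 with the set as a term). Its relative *slc8a1a* differed by 0.78 (SE 0.38, adjusted p = 0.265) and the calcium buffer gene *calb2a* by −0.68 (SE 0.33, adjusted p = 0.266), and both changed sign with the set as a term, to −0.08 and 0.17. Without set 3 the differences were 0.72 for *slc8a3*, 0.64 for *slc8a1a* and −0.49 for *calb2a*.

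The list of 10 ionocyte genes, which mixes markers of several ionocyte types, had a median of 0.05 and 1 gene past the threshold. The *slc12a10.2* gene, for the sodium-chloride cotransporter of another ionocyte type than the one with *trpv6*, had 393, 375 and 394 normalized counts in the controls, 690, 428 and 557 at POP75×, and 651, 668, 613 and 846 at POP125×. It rose by 0.83 at POP125× (SE 0.18, limma adjusted p = 0.0443), a call lost in 13 of 22 alternatives, among them edgeR (adjusted p = 0.0505) and leaving out any control or any POP125× sample (0.0596 to 0.201). For genes of the calcium-absorbing ionocytes, *igfbp5a* had 83.7 to 135 normalized counts in the controls and 83.2 to 120 at POP125× (difference 0.02, SE 0.27, adjusted p = 0.969), and *pappaa*, for the protease that cleaves its product, 134 to 155 and 184 to 229 (0.57, SE 0.20, adjusted p = 0.158). With the set as a term the differences were 0.62 for *slc12a10.2*, −0.58 for *igfbp5a* and 0.31 for *pappaa*.

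Of the phosphate genes 17 were tested and 0 passed (median −0.09). The *fgf23* gene, for a hormone that in mammals lowers blood phosphate and represses synthesis of the active vitamin D hormone, had 11.5, 11.7 and 12.8 normalized counts in the controls, 4.66, 8.52 and 8.79 at POP75×, and 3.15, 0, 10.3 and 6.11 at POP125×. The controls were above all exposed samples, at a depth of a few reads (difference at POP125× −1.60, SE 0.71, limma adjusted p = 0.231). The *entpd5a* gene, required for bone mineralization in zebrafish, had 238 to 304 in the controls and 78.8 to 176 at POP125× without overlap (−1.23, SE 0.33, adjusted p = 0.0842), and the phosphate transporter gene *slc34a1b* differed by 0.86 (SE 0.35, adjusted p = 0.201). In DESeq2, which called 1609 of 21563 genes, *entpd5a* had an adjusted p of 0.0154, and it passed in 6 of 22 alternatives. Its difference was −0.79 with the set as a term and −0.77 without set 3 (limma adjusted p = 0.157). With that term *fgf23* differed by −0.91 and *slc34a1b* by 1.12.

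Of the bone genes 16 were tested and 0 passed (median −0.05). The osteoblast gene *ifitm5* had 52.5, 81.2 and 88.6 normalized counts in the controls and 29.9 to 34.7 at POP125× (difference −1.17, SE 0.35, limma adjusted p = 0.110, and −0.41 with the set as a term). The osteocalcin-like gene *bglapl*, whose mammalian relative is a vitamin D target, differed by −1.28 (SE 0.67, adjusted p = 0.295) and by 0.04 with the set as a term, and *tnfsf11*, for the osteoclast factor RANKL, by 0.82 (SE 0.56, adjusted p = 0.402). The *tnfsf11* difference was 0.092 with that term, 0.28 without control replicate 4 and 1.47 without control replicate 1. Without set 3 the differences were −1.21 for *ifitm5*, −0.38 for *bglapl* and 0.50 for *tnfsf11*.

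A list of other genes known to respond to vitamin D in mammals had a median of 0.45. Of 19 tested genes 14 had a higher mean at POP125×, 8 had groups without overlap and higher, as had 12.4% of all genes, and 0 passed the limma test. This list, too, was chosen with earlier results known, and its counts are a description. It was not sorted by the direction of the response in mammals, so a higher mean is not a match to it. The cyclooxygenase gene *ptgs2b* had 67.8 to 72.9 normalized counts in the controls, 742, 74.6 and 118 at POP75×, and 572, 885, 188 and 169 at POP125× (difference 2.31, SE 0.74, adjusted p = 0.127), and its 3 highest samples were those of set 3. Its difference with the set as a term was 0.92, that of *cebpb* 1.12 and that of *gadd45aa* 0.50. Without set 3 these differences were 1.32, 0.78 and 0.96. The *cebpb* gene, for a transcription factor of stress and inflammation, differed by 1.39 (SE 0.42, adjusted p = 0.111), and *gadd45aa*, a gene of the response to DNA damage, by 1.03 (SE 0.27, adjusted p = 0.0774). These genes also respond to signals other than vitamin D.

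Markers of liver, kidney and gut, where genes of the vitamin D system are known to be expressed, were detected, with 13 of 13 liver, 12 of 12 pronephros and 13 of 13 intestine identifiers tested, and 0 passed. Their medians at POP125× were 0.13, 0.11 and −0.07. The largest difference in the liver list was that of the transferrin gene *tfa*, with 8908 to 11497 normalized counts in the controls and 4060 to 7142 at POP125× (−0.97, SE 0.26, limma adjusted p = 0.0847, and 0.0127 in DESeq2), which was −0.42 with the set as a term and −0.72 without set 3 (limma adjusted p = 0.379), followed by *hpxb* at 0.58 (SE 0.21, adjusted p = 0.156) and *serpina1* at −0.56 (SE 0.34, adjusted p = 0.351). The *tfa* gene passed in 4 of 22 alternatives, among them DESeq2, which called 1609 of 21563 genes. In the pronephros list *pax2a* and *slc26a1* differed by −0.30 and −0.26, although 8 of its 12 genes had a higher mean at POP125× and 4 a lower one. In the intestine list, with 4 higher and 9 lower, *apoa4a*, *cldn15la* and *anpepb* differed by −0.54, −0.50 and 0.42. In the fit with the set, *hpxb* differed by 0.44, *serpina1* by 0.26, *pax2a* by −0.15, *slc26a1* by −0.31, *apoa4a* by −0.16, *cldn15la* by 0.16 and *anpepb* by 1.17. The summed pronephros count was 7926 to 8954 in the controls and 7960 to 9487 at POP125×.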

How the data were processed

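Stranded mRNA libraries from pooled larvae were sequenced in single-end reads. According to the methods of the study, the authors processed the reads with the nf-core/rnaseq pipeline at its default settings on the GRCz11 genome with Ensembl genes and compared groups with DESeq2. The deposited table holds a normalized count signal per gene, that is, counts that the authors divided by a size factor per sample. All values (100%) were whole multiples of the smallest value of their sample within 1e-06 of a read, so that whole reads were recovered. 2 deposited tables with the authors' own fold changes and p-values were not used.

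Genes that reached 10 normalized counts in 3 or more samples were tested on log2(normalized count + 1) with limma 3.58.1 in R 4.3.3 (moderated test with intensity trend, treatment as the only term, all 10 samples, Benjamini-Hochberg adjustment over 21563 genes, threshold 0.05). Fold changes on this scale understate those of low genes. The procedure was tested first on simulated counts with the same dispersion for every gene and no sample sets. That test therefore says nothing on how the procedure behaves with the sets present. Counting tests on recovered reads (edgeR 4.0.16 quasi-likelihood and DESeq2 1.42.0 Wald), other scalings, filters and pseudocounts (0.5 and 5), a replicate block, the sample set as a term, and leaving out samples were the alternatives. The sets came from average-linkage clustering of the samples on the tested genes, with the number of sets fixed at 3. The methods of the study describe independent experiments, but the labels do not tie them to samples, so that p-values measure the spread between these pools.

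The 7 genes and the 12 lists were chosen with earlier results of these data known. Named from each list were the genes past the threshold, or otherwise the 3 with the largest differences at POP125×, and the further hormone genes and *igfbp5a*, *pappaa* and *casr* were added after their values were seen. One gene that this rule names is not reported here. Of the 180 listed symbols 15 matched no gene, and 1 matched 2 identifiers. Levels are not compared between genes, since no gene lengths were used.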

Additional observations from a re-analysis of the deposited data

How the results depend on the processing

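For *cyp24a1* the difference between POP125× and control stayed between 1.96 and 2.34 when any 1 sample was left out, and that between POP75× and control between 0.90 and 1.28. The POP125× comparison had 366 genes past the threshold, against 1609 in DESeq2, 285 in edgeR, 188 with total reads as scaling, 1556 with only the 2 groups fitted, 2707 with the sample set as a term and 118 without set 3. Leaving out 1 sample gave 38 to 1659 genes, the lowest without control replicate 4 and the highest without POP75× replicate 3. Control replicate 2 (40), POP125× replicates 2 (65), 3 (40), 4 (44) and 1 (234), and POP75× replicate 2 (688) also moved the count by more than 1.5 times. At POP75× the count was 0, against 127 in DESeq2, 1008 with the set as a term, 1 without set 3 and 0 to 5 without 1 sample. Between the doses it was 0, against 22 in DESeq2, 1 without the filter, 1 without the trend, 61 with the set as a term and 0 to 2 without 1 sample. The set was read from the data, so p-values from that fit are not given.

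The correlation of deviations from the group means was −0.41 to 0.49 over 8 pairs of samples with the same replicate number. With few samples a group and the sets present, these values cannot decide whether the replicate numbers pair the samples. A fit with the replicate block gave 1164 genes at POP125× and turned *gc* at POP75× to −0.34 and the differences between the doses of *vdra* to −0.062 and *cyp2r1* to 0.089. In that fit *cyp2r1* (lower) and *vdra* (higher) were past the threshold at POP125× beside *cyp24a1*. Outside that fit, *vdrb* (higher) was past it at POP125× with only the 2 groups fitted and, separately, without POP75× replicate 3. Those settings had, in this order, 1164 of 21563, 1556 of 21220 and 1659 of 21487 genes past the threshold. With treatment as the only term in all 10 samples there were 366 of 21563. The calls of the vitamin D genes are given as a description.

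Of 1187 log2 differences under the alternatives (54 results), 1080 counted as unchanged and 32 as changed in sign. For the 7 genes at POP125× against control, unchanged meant a shift below the SD of the control log2 values. For the other results it meant the same direction and side of the threshold. Among those, 41 differences gained a call with the direction kept and 27 lost one. Larger shifts of the 7 genes at POP125× numbered 7 and are not among the 32. These include *cyp2r1* (0.29), *vdra* (−0.28), *trpv6* (−0.50) and *gc* (0.65), which changed sign with the set as a term. Without set 3 the differences of these genes at POP125× kept their sign, at −0.35, 0.24, 0.15 and −0.51. With the set as a term the signs changed at POP75× for *vdra* (−0.071) and *trpv6* (−0.41, and −0.47 without set 3), between the doses for *cyp27b1* (0.027), *cyp2r1* (0.37), *vdra* (−0.21) and *trpv6* (−0.096), and at POP125× for *amn* (0.024), *bglapl* (0.039), *calb2a* (0.17), *cldn15la* (0.16), *cubn* (0.32), *lrp2b* (0.40), *rxrab* (−0.085), *rxrgb* (0.039), *serpina1* (0.26) and *slc8a1a* (−0.076). Without 1 sample the ranges that crossed 0 were −0.47 to 0.65 for *gc*, −0.47 to 0.35 for *trpv6* and −0.040 to 0.82 for *vdrb* at POP75×, and −0.71 to 0.10 for *cyp27b1*, −0.85 to 0.27 for *cyp2r1*, −0.19 to 0.49 for *vdra* and −0.093 to 0.73 for *trpv6* between the doses. The cause of these changes was not tested. With 3 or 4 pools a group, the SE of the differences was 0.36 to 0.63 for the vitamin D genes other than *cyp24a1*, which limits what could be detected for them.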
